A study of Homo sapiens with 2 samples.

Results

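The genes described here encode ephrins and their Eph receptors, semaphorins with their plexin and neuropilin receptors, and the Slit, netrin, ROBO and UNC5 families, ligands and receptors first known for steering axons. They were taken by symbol: names starting EPHA, EPHB, EFNA, EFNB, PLXN or UNC5, or SEMA, SLIT or ROBO followed by a digit, with NRP1, NRP2 and NTN1. The rule found 73 of the 25702 features of the count table. Of these, 67 are protein-coding and 6 are antisense or other non-coding genes, and it also took UNC50, a Golgi membrane protein, and UNC5CL, a death-domain protein, which are not known as netrin receptors. RNA came from REH (labelled REH-R), a human line of leukaemic B-cell precursors, in which doxycycline switched on a cassette. The PAX5 cells carried tet-regulated PAX5-IRES-GFP, where PAX5 is the transcription factor that holds B cells to their lineage and the IRES lets the same transcript also give green fluorescent protein. The control cells carried tet-regulated IRES-GFP alone. Doxycycline was given to PAX5 and control cells alike, at 1 µg/mL over 3 days, and RNA was taken from cells sorted for GFP, so the controls share the drug, the reporter and the sort. The labels do not say whether each culture was a clone or a pool.

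Ephrins are membrane-bound ligands that bind Eph receptor tyrosine kinases on touching cells and can signal in both directions, through the receptor and back through the ligand. Semaphorins are secreted or membrane-bound and act mainly through plexins, whose intracellular part inactivates small GTPases, while the secreted class 3 members bind neuropilins as co-receptors. Slits bind ROBO receptors and netrins bind DCC, neogenin and UNC5 receptors. In lymphoid tissue several of these genes also act on adhesion, migration and contact between immune cells, SEMA4D through CD72 on B cells among them.

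Each group had 1 library, so the differences have no replicate check and no p-value is given. Ratios are PAX5 over control after TMM scaling (a trimmed-mean correction of library size). Each has an exact 95% interval for counting error alone, which sets 2 libraries against each other rather than 2 conditions. Deposited counts came to 11944765 in PAX5 cells and 10997864 in control cells. PAX5 itself had 8319 counts in PAX5 cells and 2660 in control cells, 2.91-fold more (2.78 to 3.04), with RNA from the cassette and from the cells' own gene counted together. All 8 B-precursor markers were counted in both libraries, the lowest being VPREB1, part of the surrogate light chain, with 17 counts in PAX5 cells and 7 in control cells. Of 5 epithelial markers, KRT8, KRT18, KRT19 and EPCAM were at 0 in both libraries and CDH1 had 0 counts in PAX5 cells and 1 in control cells. Of 5 endothelial markers, CDH5 and TEK were at 0 in both, and the list summed to 1.68 CPM (counts per 1000000 of the scaled library size) in PAX5 cells and 1.45 CPM in control cells. T-cell markers had 0 counts in PAX5 cells and 1 in control cells. Myeloid markers summed to 20.0 CPM in PAX5 cells and 29.2 CPM in control cells, with 4 of 5 detected in each. Most of that was ITGAM, with 18.7 CPM in PAX5 cells and 25.2 CPM in control cells. Fibroblast markers summed to 49.6 CPM in PAX5 cells and 59.5 CPM in control cells, with LUM at 0. PDGFRB alone had 39.8 CPM in PAX5 cells and 51.0 CPM in control cells. Neuronal markers summed to 26.7 CPM in PAX5 cells and 20.3 CPM in control cells, with STMN2 and SNAP25 at 0. SYT1 alone had 25.4 CPM in PAX5 cells and 19.1 CPM in control cells. The part of these transcripts in the results was not tested.

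Promoter sequences are shown for the member that passed the rule of size below and for the others with a single promoter entry whose intervals lay farthest from 0, EPHB3 and EFNB2 above it and PLXNA1 below it. Each is the 250 bases before the gene's start, 5′ to 3′ on the gene's strand, from RefSeq on GRCh38.p14, another build than the one used for counting. They lie at chr1:16156070-16156319 on the minus strand for EPHA2, chr3:184561535-184561784 on the plus strand for EPHB3, chr13:106535663-106535912 on the minus strand for EFNB2 and chr3:126982865-126983114 on the plus strand for PLXNA1. Capitals mark GCGTGAC, a stretch of the known PAX5 recognition sequence, or its reverse complement GTCACGC.
EPHA2: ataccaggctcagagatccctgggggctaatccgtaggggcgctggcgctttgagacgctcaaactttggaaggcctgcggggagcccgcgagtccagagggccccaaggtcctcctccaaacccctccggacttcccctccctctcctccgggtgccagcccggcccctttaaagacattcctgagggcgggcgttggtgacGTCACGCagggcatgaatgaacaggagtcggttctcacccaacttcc
EPHB3: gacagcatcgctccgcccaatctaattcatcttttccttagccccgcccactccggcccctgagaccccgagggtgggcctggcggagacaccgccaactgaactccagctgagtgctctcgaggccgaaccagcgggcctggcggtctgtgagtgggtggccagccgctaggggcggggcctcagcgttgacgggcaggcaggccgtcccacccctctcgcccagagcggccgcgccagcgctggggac
EFNB2: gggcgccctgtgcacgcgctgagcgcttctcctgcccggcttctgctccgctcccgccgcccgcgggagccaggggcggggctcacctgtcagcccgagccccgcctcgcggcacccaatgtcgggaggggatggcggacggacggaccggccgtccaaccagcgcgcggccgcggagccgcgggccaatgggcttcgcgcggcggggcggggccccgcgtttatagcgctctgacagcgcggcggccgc
PLXNA1: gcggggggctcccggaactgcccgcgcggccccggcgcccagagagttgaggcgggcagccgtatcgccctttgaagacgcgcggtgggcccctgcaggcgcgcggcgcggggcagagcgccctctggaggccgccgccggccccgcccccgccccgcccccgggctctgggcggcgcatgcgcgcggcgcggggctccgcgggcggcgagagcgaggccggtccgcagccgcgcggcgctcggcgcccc
Of 94 such windows that belong to 63 members, only that of EPHA2 held the motif, on the reverse strand at 47 to 41 bases before the start. Across all 35116 windows in the RefSeq table, 772 held it on either strand (2.20%). The EPHA2 match overlaps a palindromic TGACGTCA, the cyclic AMP response element, at 51 to 44 bases before the start. That element was in 1.65% of all windows and in those of 3 members, EPHA2, SEMA4C and SEMA3B. With the looser form GCNTGAC, which includes the first motif, 9.0% of all windows matched, and so did windows of 7 members: EPHA2, SEMA4C, UNC50, ROBO1, SEMA5A, PLXNA4 and SEMA7A. Only EPHA2 of these passed the rule of size below. The motifs were chosen with the members' counts known, and a match of letters is a description of the window, not a binding site. The share of G and C in the 4 windows shown was 63.2% for EPHA2, 70% for EPHB3, 78.4% for EFNB2 and 84.4% for PLXNA1, beside a median of 64.8% over the members' windows and 58% over all windows.

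Some guidance genes were transcribed in these leukaemia cells and others were not detected. Of the 73 members, 55 had at least 1 count in PAX5 cells and 49 in control cells, and 42, all protein-coding, had at least 10 counts over both. Of all 25702 features, 16420 had at least 1 count in PAX5 cells and 15999 in control cells, and 13532 had at least 10 over both. The remaining 31 members comprised 15 at 0 in both libraries and 16 with 1 to 9 counts. The genes at 0 in both were the Eph receptors EPHA1, EPHA3, EPHA5, EPHA6, EPHA8, EPHA10 and EPHB1, the secreted semaphorins SEMA3C and SEMA3E, ROBO3, SLIT3, UNC5C and the non-coding EPHA5-AS1, SLIT2-IT1 and SLIT3-AS1. At 0 counts, a level of up to 0.252 CPM remains possible in PAX5 cells and of up to 0.272 CPM in control cells (3 counts each). Per gene length, the highest levels were those of the plexin PLXNB2, with 39.1 CPM per kilobase in PAX5 cells and 30.2 in control cells, and the receptor EPHB4, with 35.1 in PAX5 cells and 33.3 in control cells. The ephrin EFNA3 (29.3 in PAX5 cells, 30.2 in control cells) and the plexin PLXND1 (27.8 in PAX5 cells, 29.9 in control cells) were close to them on the same scale. These 4 genes stood in the top 4 places in both libraries, PLXND1 at place 4 in each.

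**Figure D1:**
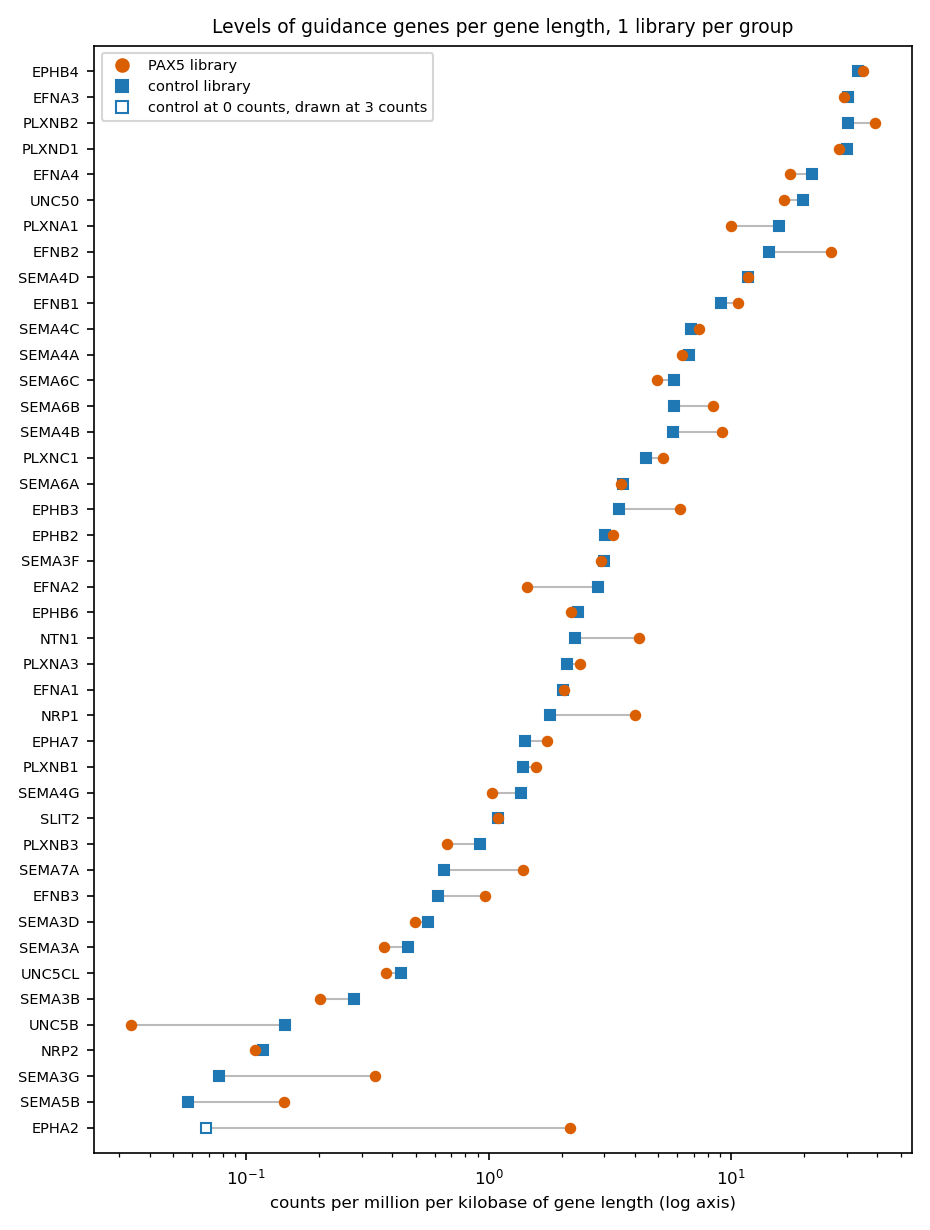
Levels of the 42 members with at least 10 counts, in CPM per kilobase of gene length on a log axis, sorted by the control library. Circles are the PAX5 library and squares the control library (1 library each); most pairs lie close together, while EPHA2 had 0 control counts and its open square is drawn at 3 counts.

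By the rule of size, a counting bound at or beyond 2-fold with at least 10 counts over both libraries, 1 member was higher in PAX5 cells and none was lower. Over all 13532 features with that many counts, 1.34% were higher and 0.0517% lower by the same rule, so 1 of 42 is near the background. In these bulk libraries, fewer cells of a kind and less RNA per cell cannot be told apart. Intervals lay above 0 for 11 of the 42 members (26.2%), against 18.7% of all features, and below 0 for 3 (7.14%), against 16.8% of all features. The median log2 ratio of the members was 0.0064 and that of all features was -0.0066. An interval off 0 depends on depth: it was found for 2 of 12 members with 10 to under 100 counts, where 14.1% of all features had one, for 8 of 23 with 100 to under 1000 counts (28.7% of all features), and for 4 of 7 with at least 1000 counts (53.8% of all features). With an assumed biological coefficient of variation of 0.2 between replicates, 6 of the 14 kept an interval off 0, all above it: EPHA2, EFNB2, NRP1, NTN1, SEMA3G and SEMA7A. At that setting, intervals lay above 0 for 2.90% of all features and below 0 for 0.672%.

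Gene length moved with the ratio over the whole table. In 10 equal groups by length, the median log2 ratio of all features ran in steps from -0.21 in the shortest group (median length 842 bases) to 0.19 in the longest (8090 bases), and the share of intervals above 0 from 5.02% to 52.6%. Whether length has a part in any member's difference was not tested beyond the centred values given here. The 42 members had a median length of 4375.5 bases against 2872.5 for all features. In the length group that holds the members' median (4067 to 4957 bases), 26.2% of all features had intervals above 0 and 10.1% below. The members' own shares were 26.2% and 7.14%. After each ratio was centred on the median of its length group, the median of the members was -0.019. Of the 42 members, 11 then had intervals above 0 and 5 below, and EPHA2 alone passed the 2-fold bound. With the same centring, 15.96% of all features had intervals above 0 and 14.48% below. By the 2-fold bound, 183 of 13532 features were then higher and 4 lower. Centring took EFNA4 out of the members with an interval off 0, and put PLXNB3, SEMA4D and SEMA6C among those below 0.

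**Figure D2:**
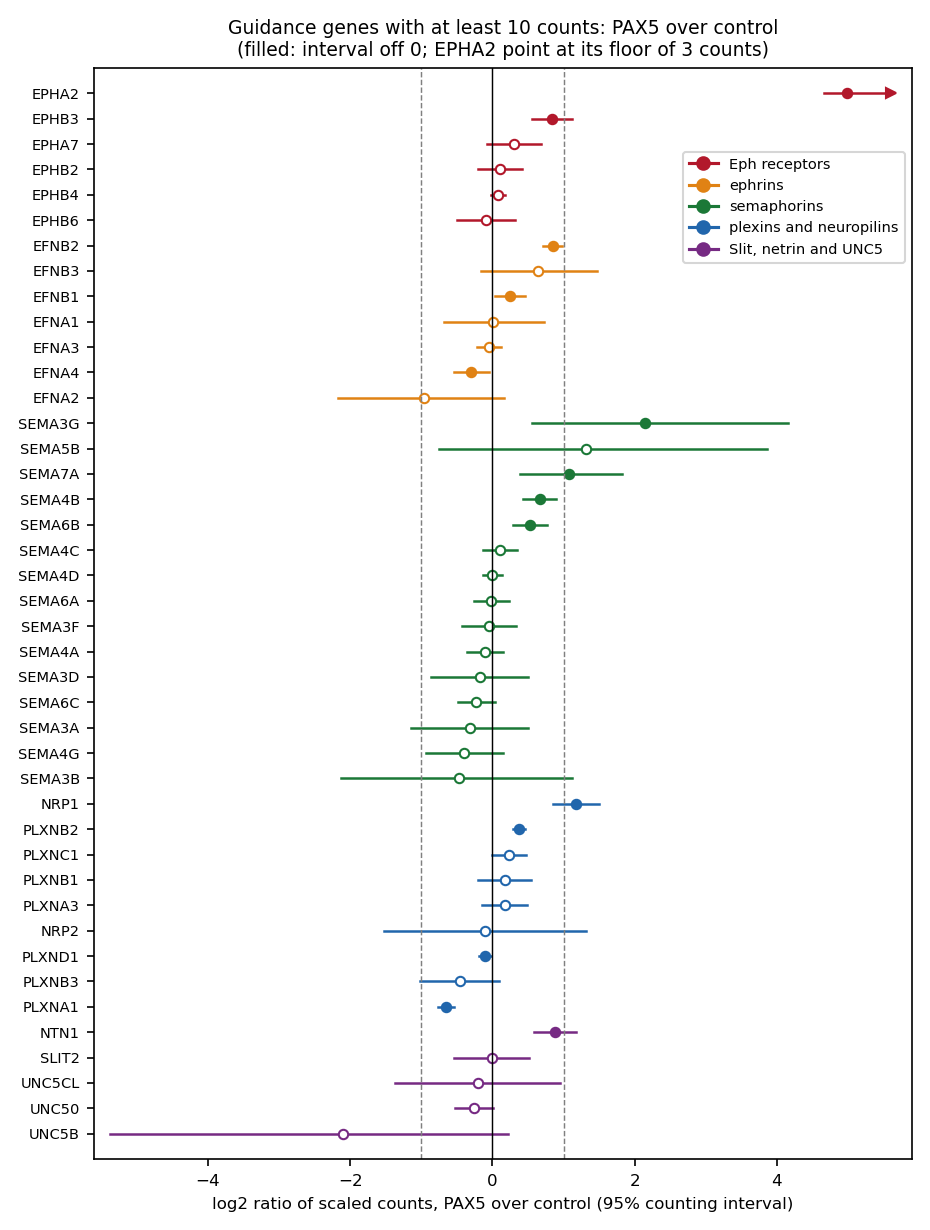
Log2 ratio of the PAX5 library over the control library for the 42 members with at least 10 counts, grouped by role, with exact 95% counting intervals; filled points have an interval off 0 and dashed lines mark 2-fold. EPHA2 lies far to the right with an open upper end and is drawn at 31.6-fold, its value over a floor of 3 counts, while all other intervals cross or lie inside the 2-fold lines.

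Among the Eph receptors, EPHA2 was the member higher in PAX5 cells. EPHA2, a receptor for ephrin-A ligands best known from epithelial cells, had 102 counts in PAX5 cells and 0 in control cells. The minimum of 10 counts was thus met only through the PAX5 library. EPHA2 was 31.6-fold higher when 3 counts are taken as the control's floor, and the interval itself began lower, at 25.2-fold. In the table as a whole, 43 of 13532 features had 0 control counts and at least 10 PAX5 counts, and 4 of them had as many counts as EPHA2 or more, itself included. Its level was nevertheless modest, at 2.16 CPM per kilobase in PAX5 cells, place 25 among the members there. Epithelial markers were at 0 in PAX5 cells, as given above. EPHA2 made up 102 of 244 EphA receptor counts in PAX5 cells, 41.8% (exact 95% interval 35.5 to 48.3), and 0 of 107 in control cells, where 3 counts would be 2.80% and the exact 95% interval ends at 3.39%. The gene EPHA2-AS1 overlaps the start of EPHA2 in the RefSeq annotation and is not a feature of the count table, so without a known strand setting reads of the antisense transcript could not be told from those of EPHA2.

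No other EphA receptor had an interval off 0. EPHA7 had 138 counts in PAX5 cells and 104 in control cells, a log2 ratio of 0.30 (-0.08 to 0.68), and EPHA4 had 4 in PAX5 cells and 3 in control cells. EPHA1-AS1, antisense to EPHA1, had 1 count in PAX5 cells and 0 in control cells. The remaining 6 protein-coding EphA genes were at 0 in both. EPHA receptors other than EPHA2 therefore summed to 142 counts in PAX5 cells and 107 in control cells, 1.23-fold with an interval of 0.953 to 1.60.

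EphB receptors had most of the Eph counts. EPHB4, the main receptor of ephrin-B2 in blood vessels, had 1815 counts in PAX5 cells and 1602 in control cells, a log2 ratio of 0.07 (-0.02 to 0.17). It held 68.3% of all Eph receptor counts in PAX5 cells and 75.0% in control cells. EPHB3, a receptor known from the intestinal crypt, had 307 counts in PAX5 cells and 160 in control cells, 1.78-fold (1.47 to 2.17), with an interval above 0 but under the rule of size. EPHB2 (188 counts in PAX5 cells, 163 in control cells) and EPHB6, which lacks kinase activity (105 in PAX5 cells, 104 in control cells), had intervals that spanned 0.

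Of the ephrins, those of the transmembrane B class had positive log2 ratios, with EFNB2 the most abundant of that class. EFNB2, the ligand of EPHB4 that also marks arterial endothelium, had 1329 counts in PAX5 cells and 686 in control cells, 1.80-fold (1.64 to 1.98). Its whole interval lay just under 2-fold, and its level went to place 5 among the members in PAX5 cells against place 8 in control cells. EFNB1 had 424 counts in PAX5 cells and 333 in control cells, a log2 ratio of 0.24 (0.03 to 0.45), and EFNB3 had 37 in PAX5 cells and 22 in control cells, with an interval that spanned 0. Summed over the class, ephrin-B counts were 1790 in PAX5 cells and 1041 in control cells, 1.60-fold (1.48 to 1.73), of which EFNB2 gave the greater part.

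The 4 measured ephrin-A genes, which encode lipid-anchored ligands, had log2 ratios from -0.97 to 0.01. They are short, and centred on length the values were 0.13 for EFNA1, 0.04 for EFNA3, -0.18 for EFNA4 and -0.76 for EFNA2. EFNA4 had 262 counts in PAX5 cells and 299 in control cells, a log2 ratio of -0.30 (-0.54 to -0.05), and -0.18 (-0.43 to 0.06) after centring on length. EFNA3, the most abundant ephrin per length in both libraries, had 620 counts in PAX5 cells and 595 in control cells, and its interval of -0.21 to 0.12 spanned 0. EFNA1, a ligand of EPHA2, had 38 in PAX5 cells and 35 in control cells, and EFNA2 had 11 in PAX5 cells and 20 in control cells, a log2 ratio of -0.97 with an interval of -2.18 to 0.16. EFNA5 had 1 count in each library. EFNA4, EFNA3 and EFNA1 lie side by side on chromosome 1, and readthrough transcripts that join EFNA4 to ADAM15 and to EFNA3 are annotated in RefSeq, so that reads may have been shared among them. ADAM15, the other neighbour of EFNA4, had a log2 ratio of -0.36 (-0.61 to -0.10).

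Among secreted semaphorins, counts were low and 1 of 5 measured genes had an interval off 0. SEMA3G had 19 counts in PAX5 cells and 4 in control cells, 4.41-fold with a wide interval of 1.47 to 17.8, and so did not pass the rule. SEMA3F, with the most counts of the class, had 121 in PAX5 cells and 116 in control cells, a log2 ratio of -0.04 (-0.42 to 0.34). SEMA3A, a classic repellent that acts through NRP1, had 25 in PAX5 cells and 29 in control cells, SEMA3D had 37 in PAX5 cells and 39 in control cells, and SEMA3B had 7 in PAX5 cells and 9 in control cells. Each of those intervals spanned 0. The antisense SEMA3F-AS1 had 0 counts in PAX5 cells and 6 in control cells, under the minimum of 10.

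Membrane-bound semaphorins were better covered. SEMA4B had 428 counts in PAX5 cells and 251 in control cells, 1.59-fold (1.35 to 1.86), and SEMA6B had 370 in PAX5 cells and 238 in control cells, 1.45-fold (1.22 to 1.71). SEMA7A, which is lipid-anchored and binds PLXNC1 and integrins, had 57 counts in PAX5 cells and 25 in control cells, 2.12-fold (1.30 to 3.54). These 3 had intervals above 0, before and after centring on length, and none passed the rule of size. The other 7 measured membrane semaphorins had intervals that spanned 0 without centring: SEMA4A, SEMA4C, SEMA4D, SEMA4G, SEMA5B, SEMA6A and SEMA6C. SEMA4A, which is known to co-stimulate T cells, had 256 counts in both libraries, and SEMA4C had 310 in PAX5 cells and 268 in control cells. SEMA6C, a ligand of A-class plexins, had 237 counts in PAX5 cells and 258 in control cells, a log2 ratio of -0.23 (-0.49 to 0.03), and its relative SEMA6A had 287 in PAX5 cells and 270 in control cells. The ratios of the rest were the least precise: SEMA4G had 54 counts in PAX5 cells and 66 in control cells, and SEMA5B had 8 in PAX5 cells and 3 in control cells. Under the minimum of 10, SEMA4F had 3 counts in PAX5 cells and 0 in control cells, SEMA5A had 6 in PAX5 cells and 2 in control cells, and SEMA6D had 1 in PAX5 cells and 0 in control cells.

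SEMA4D (CD100), the semaphorin best known in lymphocytes, was the most abundant of all semaphorins per length, and 2 of its known receptors can be set beside it. It had 948 counts in PAX5 cells and 881 in control cells, 11.7 CPM per kilobase in each, with an interval of -0.13 to 0.13 for the log2 ratio. Its plexin receptor PLXNB1 had 137 counts in PAX5 cells and 113 in control cells, a log2 ratio of 0.17 (-0.20 to 0.54). Its lymphoid receptor CD72 had 882 counts in PAX5 cells and 209 in control cells, 3.92-fold (3.37 to 4.58), past the rule of size. CD72 is a known target of PAX5 and was picked out in earlier results on these data. Centred on length, the interval of SEMA4D lay below 0, at -0.32 to -0.06.

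Plexins had values on both sides of 0. PLXNB2, a receptor of class 4 semaphorins, had 2943 counts in PAX5 cells and 2114 in control cells, 1.29-fold (1.22 to 1.37). PLXNA1, which pairs with neuropilins in the response to class 3 semaphorins, had 1078 counts in PAX5 cells and 1576 in control cells, 1.57-fold lower (1.46 to 1.70). Of the 3 members with an interval below 0, PLXNA1 had the log2 ratio farthest from it, at -0.65 (-0.77 to -0.54), and centring on length moved it further, to -0.84. PLXND1, a receptor of SEMA3E, had 2302 counts in PAX5 cells and 2304 in control cells, a log2 ratio of -0.11 (-0.19 to -0.02) once library size was taken into account, and -0.30 after centring on length. PLXNC1, the receptor of SEMA7A, had 318 counts in PAX5 cells and 252 in control cells, a log2 ratio of 0.23 (-0.01 to 0.47). PLXNA3 had 190 in PAX5 cells and 157 in control cells, and PLXNB3 had 51 in PAX5 cells and 65 in control cells. The intervals of these 3 and of PLXNB1 spanned 0. PLXNA2 had 1 count in PAX5 cells and 0 in control cells, and PLXNA4 had 0 in PAX5 cells and 2 in control cells. Over the whole family, plexin counts summed to 7020 in PAX5 cells and 6583 in control cells, 0.991-fold (0.958 to 1.03).

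The neuropilin NRP1, a co-receptor for class 3 semaphorins and for vascular endothelial growth factor, came closest to the rule of size without passing it. It had 283 counts in PAX5 cells and 117 in control cells, 2.25-fold (1.81 to 2.81), and its log2 ratio was 1.17 (0.85 to 1.49) before and 1.07 (0.75 to 1.39) after centring on length. No member lay close to the rule from inside, since EPHA2 had a lower bound of 4.66 on the log2 scale, and the nearest outside it were NRP1 with 0.85 and EFNB2 with 0.71. NRP2 had 10 counts in each library.

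The netrin NTN1, a secreted ligand, also had an interval above 0. It had 295 counts in PAX5 cells and 149 in control cells, 1.84-fold (1.51 to 2.26), under the rule of size. Its UNC5 receptors were at or near 0: UNC5B had 2 counts in PAX5 cells and 8 in control cells, UNC5A had 3 in PAX5 cells and 0 in control cells, UNC5D had 1 in PAX5 cells and 0 in control cells, and UNC5C had none. The log2 interval of UNC5B, the measured one of these, ran from -5.38 to 0.22. The attractive netrin receptor DCC, given here with NEO1 after their values were seen, had 0 counts in PAX5 cells and 1 in control cells, while its relative neogenin (NEO1) had 815 in PAX5 cells and 743 in control cells, a log2 ratio of 0.03 with an interval that spanned 0. Of the UNC5-named genes, UNC50 had 224 counts in PAX5 cells and 250 in control cells, and UNC5CL had 14 in PAX5 cells and 15 in control cells, both with intervals that spanned 0.

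Slit ligands and their receptors were sparse. SLIT2 had 64 counts in PAX5 cells and 60 in control cells, a log2 ratio of -0.01 (-0.54 to 0.52). SLIT1 had 5 counts in PAX5 cells and 0 in control cells, and its antisense SLIT1-AS1 had 0 in PAX5 cells and 1 in control cells. The receptors ROBO1, ROBO2, ROBO3 and ROBO4 together had 4 counts in PAX5 cells and 6 in control cells, of which ROBO1 gave 2 in PAX5 cells and 5 in control cells. No difference in this family was detectable at this depth.

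**Figure D3:**
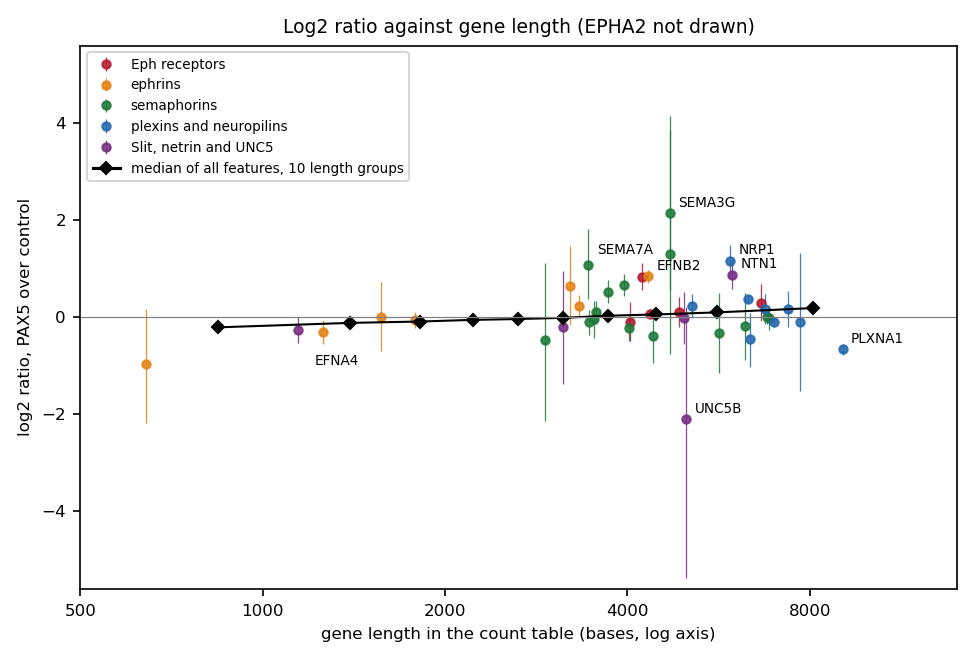
Log2 ratio (PAX5 over control) against gene length in bases on a log axis for 41 measured members, with 95% counting intervals; EPHA2 is not drawn. The black line joins the medians of all features in 10 length groups, from -0.21 to 0.19; NRP1, NTN1 and EFNB2 lie above it and PLXNA1 lies below it.

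For each of the 14 members with an interval off 0, the nearest gene with at least 10 counts on either side was looked up in the RefSeq gene order. Of these 28 neighbours, 1 passed the rule of size, beside 1.34% of all features higher and 0.0517% lower. It was CHRD, which encodes the BMP antagonist chordin and lies beside EPHB3. CHRD had 92 counts in PAX5 cells and 22 in control cells, with a log2 interval of 1.27 to 2.70. The median log2 ratio of the 28 was -0.026. The other neighbour of EPHB3, MAGEF1, had a log2 ratio of 0.08. Beside EPHA2, FAM131C had 13 counts in PAX5 cells and 4 in control cells, with an interval of -0.10 to 3.67 for the log2 ratio, and ARHGEF19 had 170 in PAX5 cells and 191 in control cells, -0.27 (-0.58 to 0.03). Beside EFNB2, ARGLU1 had 0.04 and ERCC5 had -0.0031 on the log2 scale, and beside NRP1, ITGB1 had 0.09 and PARD3 had 0.19.

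Other genes of the same pathways were put in 4 lists of 91 genes from their known roles, with earlier results of these data known. Among 78 measured, 3 passed the rule of size, all higher in PAX5 cells. That is 3.85%, beside 1.34% of all features, and 2 of the 3 had under 20 counts. Those 2, NTN4 and NGEF, reached 10 counts only through the PAX5 library, and CD72 had been picked out in the earlier results. The shares of these lists are therefore not independent of the data. Intervals lay above 0 for 31 of the 78 (39.7%) and below 0 for 10 (12.8%), beside 18.7% and 16.8% of all features. The listed genes were also long and well covered, with a median length of 4025 bases and a median of 1263 counts over both libraries, against 2872.5 bases and 652 counts for all features. Their median log2 ratio was 0.10, and 0.06 after centring on length.

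Among other guidance cues and their receptors, 1 of 13 measured genes passed the rule (7.69%, beside 1.34% of all features). The netrin relative NTN4, a laminin-binding basement membrane protein, had 18 counts in PAX5 cells and 0 in control cells. It was 5.58-fold higher with the control set at 3 counts, and its interval began lower, at 4.09-fold (2.03 on the log2 scale). FLRT1, a ligand of UNC5 receptors, had 76 counts in PAX5 cells and 38 in control cells, a log2 ratio of 0.89 with an interval above 0. RGMA, a repulsive ligand of neogenin, had 362 in PAX5 cells and 437 in control cells, -0.38 (-0.58 to -0.17). The LRIG genes, which encode leucine-rich repeat membrane proteins, were on the other side, with LRIG2 at 0.47 (0.20 to 0.75) and LRIG1 at 0.31 (0.12 to 0.49). None of these 4 was past 2-fold.

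Among 24 measured effectors of Eph receptors and ephrins, 1 passed the rule (4.17%), 11 had intervals above 0 (45.8%) and 4 below (16.7%). Over all features the shares were 1.34% higher by the rule, 18.7% above 0 and 16.8% below. The list had a median of 1574.5 counts. NGEF (ephexin), a guanine nucleotide exchange factor that binds EPHA4, had 17 counts in PAX5 cells and 0 in control cells. It was 5.27-fold higher with the control set at 3 counts, and its interval began lower, at 3.83-fold (1.94 on the log2 scale). TIAM1, an exchange factor for the small GTPase RAC, had 318 counts in PAX5 cells and 154 in control cells, a log2 ratio of 0.94 (0.66 to 1.23). The exchange factors VAV2 and VAV3 also had intervals above 0, at 0.47 (0.34 to 0.60) for VAV2 and 0.32 (0.24 to 0.41) for VAV3. CFL1, which encodes the actin-severing protein cofilin, had 10876 counts in PAX5 cells and 11976 in control cells, -0.25 (-0.28 to -0.21).

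Among 23 measured semaphorin and plexin effectors and further receptors, CD72 alone passed the rule (4.35%), with 6 intervals above 0 (26.1%) and 3 below (13.0%). Over all features the shares were 1.34% higher by the rule, 18.7% above 0 and 16.8% below. ARHGEF12, an exchange factor that binds plexin-B receptors, had 1537 counts in PAX5 cells and 1005 in control cells, a log2 ratio of 0.51 (0.39 to 0.62). The MICAL genes, which encode actin-oxidising enzymes downstream of plexins, lay on both sides of 0, with MICAL3 at 0.33 (0.20 to 0.46) and MICAL1 at -0.34 (-0.49 to -0.18). DPYSL2, a collapsin response mediator, had 5057 counts in PAX5 cells and 5615 in control cells, -0.26 (-0.31 to -0.20). The list's median log2 ratio was -0.0058 and its mean 0.096, which differ in sign.

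Among 18 measured Slit and netrin effectors none passed the rule, while 10 had intervals above 0 and 2 below. MYO10, a filopodial myosin that carries netrin receptors, had 1376 counts in PAX5 cells and 585 in control cells, a log2 ratio of 1.13 (0.99 to 1.27), just under the rule. DAPK1, a kinase linked to UNC5B, had 109 counts in PAX5 cells and 37 in control cells, 1.45 (0.90 to 2.03). The exchange factor TRIO had 0.72 (0.59 to 0.86) and SRGAP3, a Slit-ROBO GTPase-activating protein, had 0.79 (0.47 to 1.11). All 4 had intervals above 0 and none passed the rule.

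**Figure D4:**
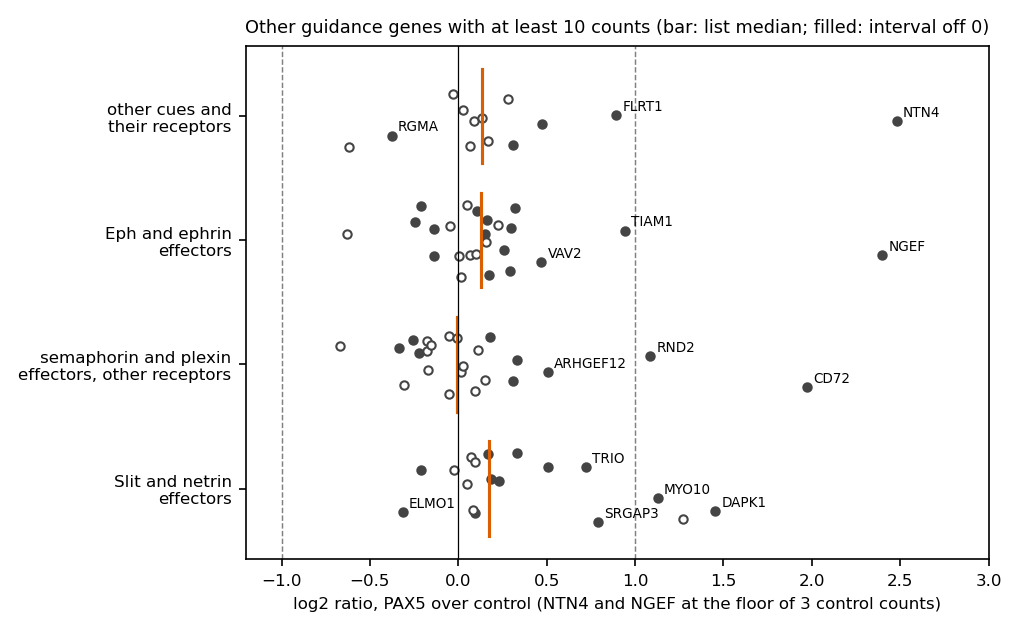
Log2 ratio (PAX5 over control) of the 78 listed guidance genes with at least 10 counts that are not members, in 4 lists; filled points have a 95% counting interval off 0, orange bars are list medians and dashed lines mark 2-fold. NTN4, NGEF and CD72 lie farthest to the right, with NTN4 and NGEF drawn at their floor of 3 control counts.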

How the data were processed

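The authors deposited raw read counts per gene (whole numbers), with the Entrez number and a length in bases. Per the submitters' processing notes, featureCounts assigned the reads, on hg19 (GRCh37). Per the labels' protocols, the kit was NEBNext Ultra RNA. Aligner and strand setting: not given in the sources used here. The series table and the files of single libraries held the same 51404 values. A column took its group from the library number that its sample's own file carries.

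Entrez numbers were matched to RefSeq on GRCh38.p14 for symbols (23696 of 25702 features) and gene order. TMM scaling (edgeR 4.0.16) used the 13532 features with at least 10 counts, and gave factors of 0.995 for PAX5 and 1.005 for the control. Intervals are exact Clopper-Pearson 95% intervals conditional on the summed count (scipy 1.17.1), and the calculation was tested on simulated counts. Those counts were drawn with counting error alone, as the intervals assume, so the test did not cover spread between cultures. PCR reads are not independent molecules, so intervals and floors cover counting error only. A library at 0 was set to a floor of 3 counts for a fold. By rule, the text names members with an interval off 0 or at 0 in both libraries, in each family the member of highest level and that of largest ratio, and listed genes past the bound with up to 4 others whose bounds lay farthest from 0. Other members are named to account for each. Members and lists were chosen with earlier results of these data known.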

Additional observations from a re-analysis of the deposited data

How the results depend on the processing

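No paired analysis was possible because each group has 1 library, and for the same reason no replicate could be left out. With the bound at 1.5-fold, 4 members were higher in PAX5 cells and with a point ratio of 2-fold 5 were higher and 1 was lower, against 1 and 0 by the rule of size. The share of all features was not computed for these settings, so the counts have no background beside them. With an assumed biological coefficient of variation of 0.2, 6 members had intervals above 0 and 0 below, against 11 and 3. Of all features, 2.90% had intervals above 0 and 0.672% below at that setting. The other cue and Eph effector lists then had 0 genes past the rule in place of 1 each. Those 2 lists also had 0 with a minimum of 50 counts, which leaves out NTN4 and NGEF. After centring on length, 5 members had intervals below 0, where 14.5% of all features had one. The assumed variation enters through a normal approximation with a small constant added to each count, in place of the exact interval. It does not widen every interval. For SEMA3G the log2 interval was 0.55 to 4.16 by the exact method and 0.33 to 3.69 with the assumed variation. EPHA2 passed the rule under each of the 8 alternatives run for single genes, among them DESeq2 1.42.0 size factors, upper-quartile factors and unscaled totals. The count minima and the single-library files could not change its call, and those scalings left its lower bound at 4.63 to 4.66 on the log2 scale. With the assumed variation the bound was 3.49. Over all results and alternatives, 223 of 233 values were scored as unmoved. Counts had to stay within 1.5 times and single genes to keep their call by the rule of size. Medians had to shift by less than the members' median counting half-width. Members whose interval came to span 0 with the assumed variation were thus scored as unmoved. Some alternatives could not move a value, such as the single-library files, which hold the same counts. The total therefore does not measure robustness. Leaving out UNC50 and UNC5CL, an alternative chosen after seeing the data, left 1 member higher and 0 lower, with 11 intervals above 0 and 3 below, and moved the median log2 ratio of the members to 0.044.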
